A study of Mus musculus with 4 samples.

Results

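Organic anion and cation transporters are membrane proteins that carry drugs, hormones, carnitine, urate and other charged small molecules into or out of cells. They were taken here as every gene on the array whose name begins with Slc22a, Slco, Slc47a or Slc17a and a number, apart from Slco1a1, Slco1a4 and Slco1b2. This gave 40 of the 30038 gene names on the array, of which 19 were Slc22a genes, 11 Slco genes, 9 Slc17a genes and 1 an Slc47a gene. RNA from livers of C57BL/6NCr mice had been hybridised to 4 one-colour Agilent arrays, 2 with RNA of E13 hepatoblasts (embryonic day 13) and 2 with RNA of hepatocytes from adults 8 weeks old. No mutation or treatment is named for either group, and the labels do not give the sex of the animals, how the cells were isolated or whether a group holds more than 1 animal. The p-values therefore reflect the spread of these 4 samples alone, and that spread may be technical.

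In the adult liver the cells take up charged compounds from the blood across the basolateral membrane, mainly by Slco and Slc22a proteins, and pass them into bile across the canalicular membrane, where Slc47a1 exchanges organic cations for protons and ABC pumps export anions. Slc22a2 and Slc22a3 carry organic cations, Slc22a6, Slc22a7 and Slc22a8 organic anions, and Slc22a4, Slc22a5 and Slc22a21 carnitine and related zwitterions. Slc17a1 to Slc17a4 carry phosphate, urate and other anions, Slc17a5 exports sialic acid from lysosomes, and the remaining Slc17a proteins load glutamate or ATP into vesicles. Several members are best known from kidney, brain or testis.

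All values are log2 signal relative to the 75th percentile of the array, and levels are compared within a gene, not between genes. A gene was tested if the scanner software marked 1 of its probes as well above background on 2 of 2 arrays in either group. It was called where the limma p-value adjusted by the Benjamini-Hochberg method over all 16422 genes tested was under 0.05. Of 41174 probes, 19299 to 23766 per array exceeded background clearly, more on the E13 arrays than on the adult ones, and no spot was saturated. The 2 E13 arrays had a Pearson r of 0.991 over the genes tested and the 2 adult arrays one of 0.989. Of the 5 hepatoblast markers Afp, Dlk1, Igf2, H19 and Gpc3, 5 were well above background on both E13 arrays and 2 on both adult arrays. Of 7 hepatocyte markers with a probe, 6 were so on both E13 arrays and 7 on both adult arrays, with Cyp2e1 not well above background in E13 hepatoblasts. The markers thus matched both labels. Markers of other cells were present too, and in such bulk RNA fewer cells of a type and less RNA per cell cannot be told apart. Probes well above background on no array lay a median of 1.14 higher on the adult arrays, whose 75th percentile was 7.88 and 8.05 in raw log2 signal against 9.07 and 8.80 on the E13 arrays. The part of this offset in differences of members close to background was not tested.

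Of the 40 transporters, 26 were tested, and most of these were higher in adult hepatocytes. The test called 23 of the 26 in one direction or the other, against 64.8% of all genes tested. Towards adult hepatocytes it called 19 members (32.1% of all genes), towards E13 hepatoblasts it called 4 (32.8%), and 3 were left uncalled. The members' median log2 fold was 1.72, against -0.01 for all genes. The groups did not overlap in 26 of 26 members (85.8% of all genes), with adult hepatocytes above in 22 (42.7%) and E13 hepatoblasts above in 4 (43.1%). Some of the 26 entered only through a single group, namely 8 that were well above background on fewer than 2 E13 arrays and 2 on fewer than 2 adult arrays. For all of these but Slc17a8, that group was the one where they were high. Among the 16 members well above background on all 4 arrays, 11 calls went to adult hepatocytes (37.7% of all such genes) and 3 to E13 hepatoblasts (28.9%), with a median log2 fold of 1.43 against 0.15 for all such genes. At least 2-fold higher in adult hepatocytes were 18 members, against 22.5% of all genes. Scaling to spike-in RNA moved the log2 fold of every gene by -1.33, which left 11 members called towards adult hepatocytes and 8 towards E13 hepatoblasts, so directions here are relative to the 75th percentile. Normexp background correction lowered the members' median to 1.36, with 20 members called towards adult hepatocytes and 2 towards E13 hepatoblasts. Over all genes it called 6641 towards adult hepatocytes and 4541 towards E13 hepatoblasts, against 5267 and 5380 without it. Members whose fold it moved by more than 1.5 times included those with log2 folds that became 7.91 for Slco2b1, 7.36 for Slc22a7, 3.40 for Slc17a4, 3.29 for Slc17a2, 2.73 for Slc17a1, 2.24 for Slc22a4, 1.65 for Slc22a5, 1.37 for Slco1a5 and 1.25 for Slco3a1, with the direction and call kept.

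**Figure D1:**
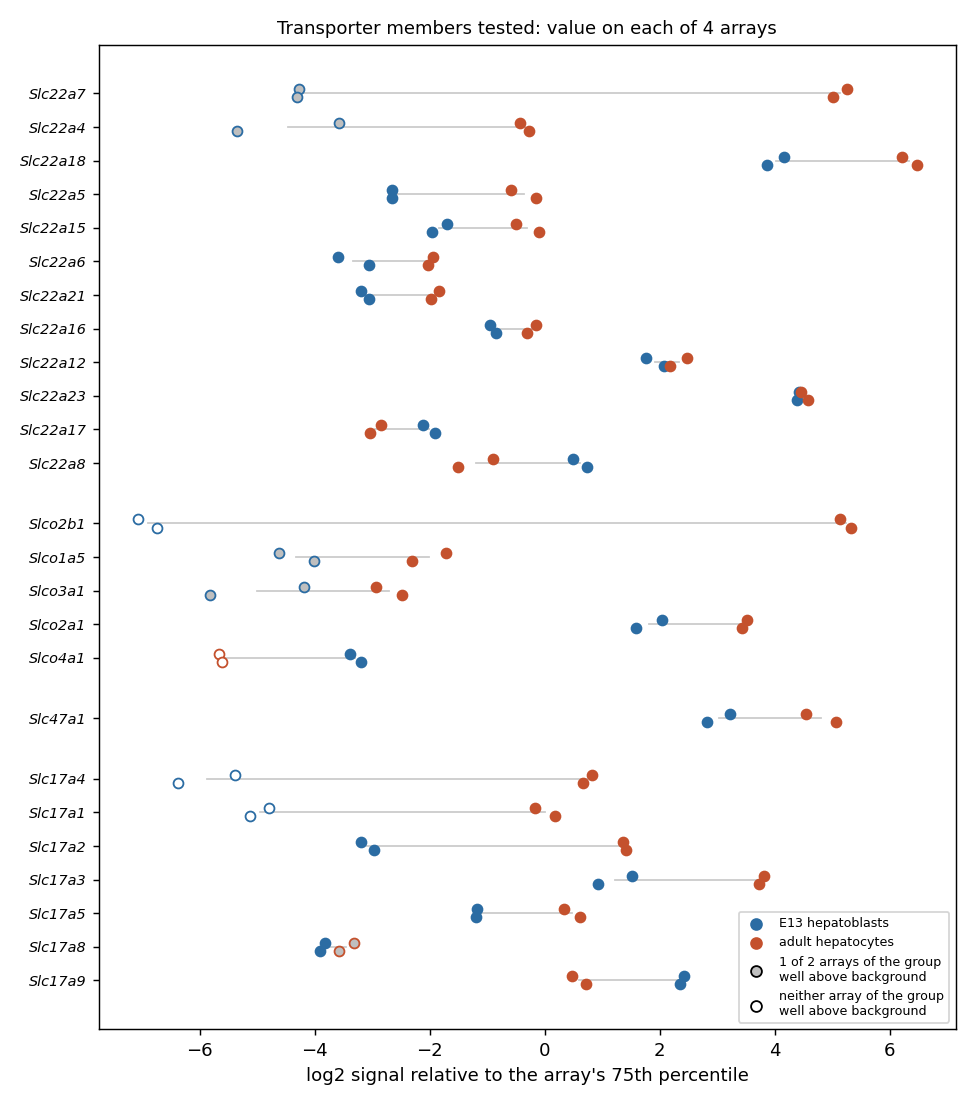
Log2 signal minus the 75th percentile of its array (horizontal axis) of 25 transporters tested, with a point for each of the 4 arrays and a grey line between the group means. Slc22a7 and Slco2b1 lie between 5.01 and 5.32 on the adult arrays and at -4.28 or lower on the E13 arrays, while the points of Slc22a23 nearly coincide.

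Of the members described here, the widest differences were in 2 uptake carriers of the hepatocyte's blood side, the organic anion transporter Slc22a7 and Slco2b1, which carries steroid conjugates and drugs. The array read each of them with 1 probe of 60 bases, and the sequences are shown, as the array files list them, since each result rests on that single probe.
Slco2b1: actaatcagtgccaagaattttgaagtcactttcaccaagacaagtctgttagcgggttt
Slc22a7: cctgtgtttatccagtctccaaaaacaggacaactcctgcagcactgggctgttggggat
In mm9 coordinates, these probes lie at chr7:106807008-106807067 (Slco2b1) and chr17:46569272-46569331 (Slc22a7). No stretch of 20 bases of either occurred in a probe of another gene on the array.

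Slco2b1 was -7.07 and -6.74 on the E13 arrays and 5.14 and 5.32 on the adult arrays, with means of -6.91 ± 0.23 and 5.23 ± 0.13 (SD, n = 2 each). Neither E13 array showed it well above background, so only a bound can be given, at least 916-fold (adjusted p = 3.04e-05 by limma). For such a bound, the undetected group is set on each array to the lowest signal well above background there, or to the gene's own value where that is larger. Such bounds need not hold with normexp correction, which gave Slco2b1 a log2 fold of 7.91 against a bound of 9.84.

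Among the organic cation carriers, Slc22a2, known from the kidney tubule, was not well above background on any array, at -7.03 and -6.71 in E13 hepatoblasts and -5.71 on both adult arrays. Slc22a3, known for its imprinted expression in placenta, was likewise below that mark on all 4, at -6.75 and -6.47 against -5.48 and -5.52. They lay 1.16 and 1.12 higher in adult hepatocytes, close to the median offset of 1.14 of probes at background.

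Slc22a4, the ergothioneine carrier, Slc22a5, the main carnitine carrier, and Slc22a21, a carnitine carrier of mice, lie side by side on chromosome 11 and were called higher in adult hepatocytes. Slc22a5 was -2.66 on both E13 arrays and -0.58 and -0.15 on the adult arrays, a 4.91-fold difference (log2 fold 2.30 ± 0.20, SE; adjusted p = 0.000907 by limma). All 4 values were well above background and the groups did not overlap. Its second probe gave a log2 fold of 1.68 ± 0.22. Slc22a4 was -3.57 and -5.36 in E13 hepatoblasts, where only the first array was well above background, and -0.42 and -0.27 in adult hepatocytes. The 2 E13 arrays stood further apart than for any other member tested, and the log2 fold of 4.12 ± 0.61 (adjusted p = 0.00449 by limma) became 5.01 without E13 replicate 1 and 3.23 without E13 replicate 2. In fits without 1 array, here and elsewhere, the lone array of its group is assumed to vary like the arrays of the other group. Slc22a21 was -3.20 and -3.05 in E13 hepatoblasts and -1.84 and -1.98 in adult hepatocytes, with a log2 fold of 1.22 ± 0.15 (adjusted p = 0.00277 by limma) that became -0.11 under spike-in scaling.

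The Slc22a21 value has a limit that its sequence shows. The Slc22a21 probe and the second, dimmer Slc22a5 probe have a longest common run of 33 bases, shown in capitals. Most bases directly before that run also match, set off by a single base. No other member's probe shared 20 bases or more with a probe of another gene on the array.
Slc22a5, second probe: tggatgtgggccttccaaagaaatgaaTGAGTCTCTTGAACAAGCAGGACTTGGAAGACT
Slc22a21: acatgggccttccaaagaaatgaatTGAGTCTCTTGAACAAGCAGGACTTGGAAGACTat
On the array the coordinates are chr11:53679058-53679117 for the Slc22a5 probe and chr11:53764508-53764567 for the Slc22a21 probe (mm9). How far each of them also read the other's transcript was not tested, so the Slc22a21 call cannot be told apart from that of Slc22a5. Slc22a16, a carnitine carrier known from testis, was -0.95 and -0.85 against -0.15 and -0.31. Its difference of 1.59-fold was the smallest called towards adult hepatocytes (adjusted p = 0.017 by limma, 0.00552 to 0.0988 over the alternatives). The call was lost without E13 replicate 1 (adjusted p = 0.0988 by limma), without E13 replicate 2 (0.0719) and with the replicate number as a block (0.0511), and the log2 fold turned to -0.66 under spike-in scaling. Of 4 testis germ cell markers, Prm1 and Tnp1 were well above background on all 4 arrays, and Ddx4 and Dazl on none. The part of such cells in the Slc22a16 result was not tested.

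Among the organic anion carriers, Slc22a7 and Slc22a6 were higher in adult hepatocytes and Slc22a8 was higher in E13 hepatoblasts. Slc22a7, which carries glutamate and nucleotide derivatives as well as drugs in liver, was -4.28 and -4.31 in E13 hepatoblasts, with 1 of 2 arrays well above background, and 5.25 and 5.01 in adult hepatocytes. This was a 687-fold difference (log2 fold 9.42 ± 0.16, adjusted p = 3.42e-05 by limma). Slc22a6, the para-aminohippurate carrier of the kidney, was dim throughout, -3.60 and -3.06 against -1.95 and -2.04, a log2 fold of 1.33 ± 0.23 (adjusted p = 0.00704 by limma) that was 0.0069 under spike-in scaling. Its second probe was not well above background on any array.

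Slc22a8, the second classical organic anion exchanger of the kidney tubule, was 0.49 and 0.73 in E13 hepatoblasts and -0.89 and -1.51 in adult hepatocytes. The difference of 3.51-fold towards E13 hepatoblasts (log2 fold -1.81 ± 0.26, adjusted p = 0.00406 by limma) held in the same direction at all 3 of its probes. The other 2 were well above background on both E13 arrays and on neither adult array, and 1 of them gave a bound of at least 2.39-fold while the other allowed no bound above 1. Because the finding rests on 3 probes that do not overlap, their sequences are given in order of brightness.
Slc22a8, brightest probe: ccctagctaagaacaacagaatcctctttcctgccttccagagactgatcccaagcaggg
Slc22a8, probe with a bound: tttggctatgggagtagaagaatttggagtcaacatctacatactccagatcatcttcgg
Slc22a8, probe without a bound: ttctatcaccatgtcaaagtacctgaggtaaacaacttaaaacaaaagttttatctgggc
They match chr19:8684762-8684821, chr19:8683645-8683704 and chr19:8685607-8685666 (mm9). Of 5 kidney tubule markers, Cubn and Lrp2 were well above background on both E13 arrays and 0 on either adult array, and Cubn, the endocytic receptor, stood at -1.61 and -1.34 in E13 hepatoblasts. The defining carriers Slc34a1 and Slc5a2, and Umod, were not well above background on any array. The summed level of the list was 0.447 to 0.524 times the 75th percentile on the E13 arrays and 0.124 to 0.226 on the adult arrays. Its part in the Slc22a8 result was not tested.

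Slc22a6 and Slc22a8 are neighbours, 15202 bases apart at their closest probes, yet were called in opposite directions.

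Slc22a12, the urate reabsorber of the kidney, was well above background on all 4 arrays, 1.75 and 2.08 in E13 hepatoblasts and 2.48 and 2.17 in adult hepatocytes. The difference of 0.41 ± 0.20 (log2, SE) missed the threshold (adjusted p = 0.137 by limma). Under spike-in scaling it became -0.92 and was called towards E13 hepatoblasts (adjusted p = 0.0136 by limma). Its probe spans 1589 bases of the genome, so it matches the joined exons. The remaining organic anion carriers Slc22a13, Slc22a19 and Slc22a20 were not tested. Slc22a13 was well above background on 1 E13 array, and the other two on no array.

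The Slc22a members without a settled substrate differed among themselves. Slc22a18, an imprinted gene, was 4.16 and 3.87 in E13 hepatoblasts and 6.21 and 6.46 in adult hepatocytes, a 5.02-fold difference (adjusted p = 0.000733 by limma). Its second probe gave 5.42-fold. Slc22a23 was 4.42 and 4.39 against 4.46 and 4.57, with a log2 fold of 0.11 ± 0.14 that was not called. It became -0.11 under normexp correction, still not called. Calls towards E13 hepatoblasts came under quantile normalization (-0.45, adjusted p = 0.0329 by limma) and spike-in scaling (-1.21, 0.00161). Slc22a15 was -1.71 and -1.97 against -0.50 and -0.10 at its brightest probe, a log2 fold of 1.53 ± 0.21 (adjusted p = 0.0035 by limma). The second probe of Slc22a15, at chr3:101663036-101663095 and well above background on all arrays, showed 0.19 ± 0.15 and was not called. The accession of that uncalled probe matched Slc22a15 in RefSeq and that of the called probe matched none, so the gene's call belongs to 1 of its 2 probes. Slc22a17, known as a receptor for the iron-binding protein lipocalin 2, was -2.11 and -1.91 in E13 hepatoblasts and -2.85 and -3.05 in adult hepatocytes, a 1.91-fold difference towards E13 hepatoblasts (adjusted p = 0.00802 by limma, 0.000332 to 0.698 over the alternatives). It was lost with normexp correction (log2 fold -0.08) and without E13 replicate 2 (adjusted p = 0.0542 by limma). Slc22a14 was not well above background on any array.

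**Figure D2:**
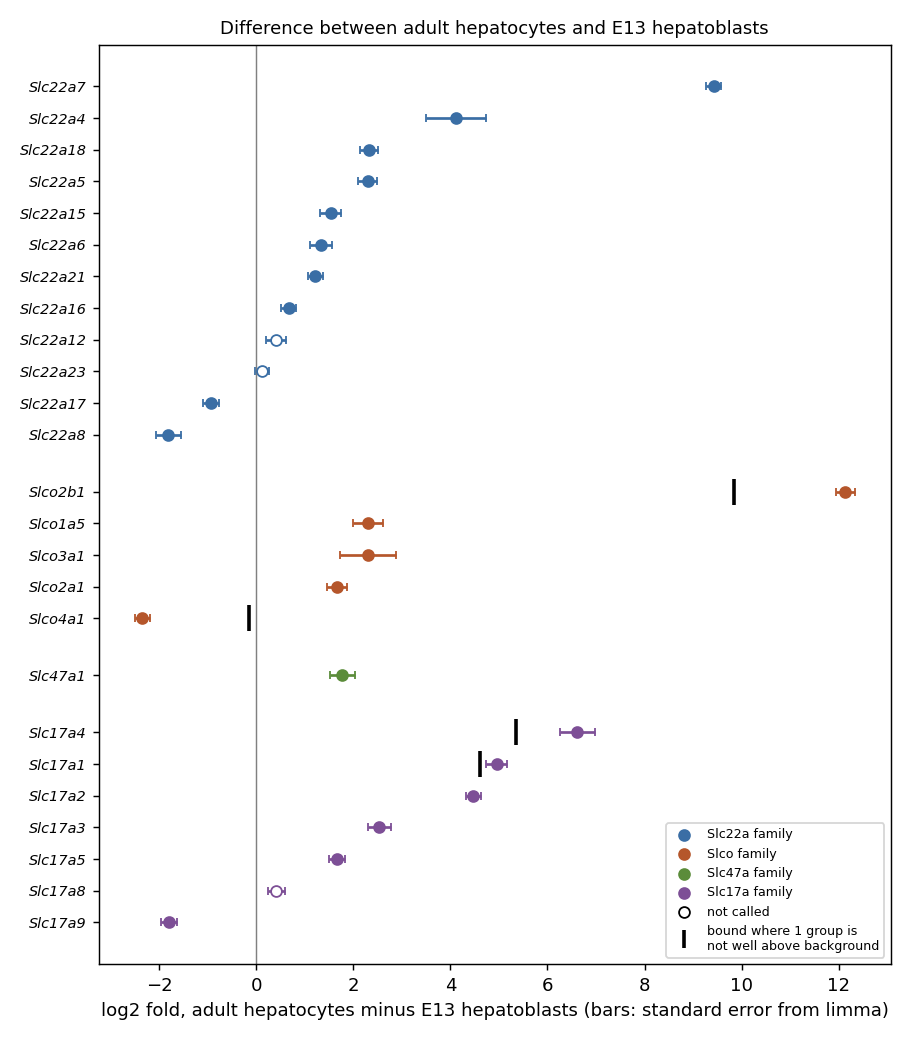
Log2 fold of adult hepatocytes minus E13 hepatoblasts (horizontal axis) for 25 transporters tested, coloured by family, with standard errors from limma as bars and filled points for called genes. Black ticks mark the bound where 1 group was not well above background, at 9.84 for Slco2b1, and that of Slco4a1 lies next to 0.

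Of the 11 Slco genes, 5 were tested, and the test called 4 towards adult hepatocytes and 1 towards E13 hepatoblasts. The widest of them was Slco2b1. The 3 carriers left out of the set by rule were also called: Slco1b2 was 483-fold, Slco1a1 at least 158-fold and Slco1a4 at least 32.3-fold higher in adult hepatocytes, as was the bile acid carrier Slc10a1 at 219-fold. The Slco1b2 log2 fold of 8.91 became 9.55 without E13 replicate 1 and 8.28 without E13 replicate 2, and normexp correction gave log2 folds of 6.37 for Slc10a1 and 5.20 for Slco1a1. Slco1a5, their neighbour on chromosome 6 and a carrier of bile acids and thyroid hormone, was -4.63 and -4.02 against -1.73 and -2.30, with 1 of 2 E13 arrays well above background (log2 fold 2.31 ± 0.31, adjusted p = 0.00333 by limma). The other two members from that stretch, Slco1a6 and the thyroid hormone carrier Slco1c1, were not well above background on any array.

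Slco2a1, the prostaglandin carrier, was 2.03 and 1.59 in E13 hepatoblasts and 3.52 and 3.44 in adult hepatocytes, a 3.18-fold difference (adjusted p = 0.00241 by limma). Its second probe gave 2.02-fold. Slco3a1, a widely expressed carrier of prostaglandins and thyroid hormone, was -4.18 and -5.82 in E13 hepatoblasts, with 1 array well above background, and -2.93 and -2.48 in adult hepatocytes. Its call (adjusted p = 0.0232 by limma, 0.000104 to 0.17 over the alternatives) was lost without adult replicate 1 (0.0617) and without adult replicate 2 (0.0956), and the log2 fold of 2.30 ± 0.58 ranged from 1.48 to 3.12 when 1 E13 array was left out. Slco2a1 is best known from endothelium, and the summed endothelial markers were higher in adult hepatocytes too. Of 8 such markers, 4 were well above background on both E13 arrays and 5 on both adult arrays. Their summed level was 0.625 to 1.86 times the 75th percentile in E13 hepatoblasts and 2.94 to 3.07 in adult hepatocytes. The list was mixed, since Lyve1 and Tek had lower means in adult hepatocytes and the rest higher ones. Lyve1, Tek and Pecam1 were well above background on no adult array. E13 array 1, on which Slc22a4 and Slco3a1 were higher than on E13 array 2, also had the higher sums of endothelial, macrophage, stellate and mesenchymal, erythroid and megakaryocyte markers. The stellate and mesenchymal list summed to 30.6 to 47.3 in E13 hepatoblasts and 13.4 to 13.8 in adult hepatocytes, with 7 and 4 of 8 well above background on both arrays. Within it, Lrat had a higher mean in adult hepatocytes (-3.16 against -4.23) and the rest lower ones. Of 8 macrophage markers 4 and 7 were well above background, with sums of 0.807 to 1.64 and 3.95 to 4.17, and Clec4f and Cd163 were not well above background in E13 hepatoblasts. This list was mixed too, since Marco had a lower mean in adult hepatocytes (-1.81 against -1.26) and the rest higher ones. The part of these cells in the results was not tested.

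Slco4a1, a thyroid hormone carrier, was the only Slco gene called higher in E13 hepatoblasts, at -3.39 and -3.20 against -5.66 and -5.62. No adult array was well above background. Both E13 values lay close to the lowest signal well above background on the adult arrays, -3.50 and -3.41, so the bound was only 1.12-fold. With normexp correction the log2 fold was -0.0039 and the call was lost (adjusted p = 0.986 by limma, 5.6e-05 to 0.986 over the alternatives). Slco4c1, a kidney carrier, was well above background on 1 E13 array at each of its 2 probes and on no adult array, and was not tested. Slco6b1, Slco6c1 and Slco6d1, known from testis, were not well above background on any array.

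Slc47a1, the proton-coupled exporter of organic cations into bile and the only member of its family with a probe named so, was well above background already in E13 hepatoblasts. It was 3.22 and 2.82 in E13 hepatoblasts and 4.54 and 5.06 in adult hepatocytes, a 3.43-fold difference (log2 fold 1.78 ± 0.26, adjusted p = 0.0041 by limma). Both of its probes were called in that direction, the second at a log2 fold of 1.58.

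Of the 9 Slc17a genes, 7 were tested, of which 5 were called towards adult hepatocytes, 1 towards E13 hepatoblasts and 1 in no direction. The urate and phosphate carriers Slc17a1, Slc17a2, Slc17a3 and Slc17a4 were all 4 called higher in adult hepatocytes, under each of the scalings tried. Slc17a4 was -5.38 and -6.37 in E13 hepatoblasts, where it was not well above background, and 0.81 and 0.67 in adult hepatocytes, at least 40.8-fold higher. Slc17a1 was -4.79 and -5.13, also not well above background, against -0.18 and 0.17, at least 24.3-fold higher. Slc17a2 was -3.20 and -2.98 against 1.36 and 1.40, well above background on all arrays and 22.2-fold higher (log2 fold 4.47 ± 0.16, adjusted p = 9.81e-05 by limma). Slc17a3 was 1.52 and 0.93 against 3.81 and 3.72, 5.81-fold higher (adjusted p = 0.00116 by limma). In none of the 4 did the groups overlap, and Slc17a3 was the one with a signal above the 75th percentile on both E13 arrays. The second Slc17a3 probe was not well above background on any E13 array and allowed a bound of at least 3.8-fold.

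The lysosomal sialic acid exporter Slc17a5 was -1.19 and -1.20 in E13 hepatoblasts and 0.33 and 0.62 in adult hepatocytes, a 3.17-fold difference (adjusted p = 0.00136 by limma). Slc17a9, which loads ATP into vesicles, was 2.42 and 2.35 in E13 hepatoblasts and 0.47 and 0.72 in adult hepatocytes, 3.47-fold lower in adults (log2 fold -1.79 ± 0.16, adjusted p = 0.00101 by limma). All its values were well above background and it stayed called towards E13 hepatoblasts under each alternative run. Markers of megakaryocytes and platelets, cells in which ATP is stored in granules, were higher in E13 hepatoblasts too: 5 of 5 were well above background on both E13 arrays and 1 on both adult arrays, with sums of 21.4 to 40.2 against 0.229 to 0.24 times the 75th percentile. Erythroid markers summed to 50.5 to 208 in E13 hepatoblasts and 21.6 to 29.1 in adult hepatocytes, with 7 and 6 of 8 well above background on both arrays. The list was mixed, since the haem synthesis gene Alas2 had a mean of -0.10 in E13 hepatoblasts and 4.52 in adult hepatocytes. Alas2 made up most of the adult sum. Every other listed marker had a higher mean in E13 hepatoblasts, among them the globin gene Hbb-b1 (6.06 and -0.51). The part of megakaryocytes, platelets and erythroid cells in the Slc17a9 result was not tested. Among the vesicular glutamate carriers, Slc17a6 and Slc17a7 were not well above background on any array. Slc17a8 lay near background at -3.83 and -3.91 against -3.32 and -3.59 and was not called (log2 fold 0.42 ± 0.17). It was called towards adult hepatocytes with quantile normalization (0.46) and normexp correction (0.69), and towards E13 hepatoblasts under spike-in scaling (-0.91). With 14 members untested in all, 12 of these were well above background on no array at any probe.

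**Figure D3:**
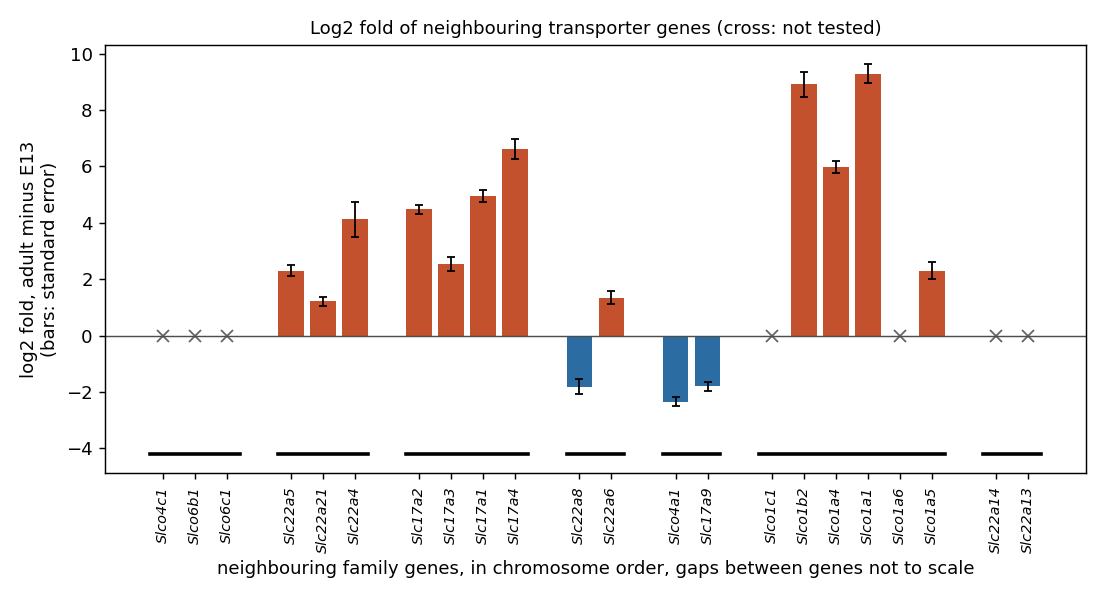
Log2 fold of adult hepatocytes minus E13 hepatoblasts (vertical axis, bars with standard errors) for family genes, by array name, within 500000 bases of each other. They stand in chromosome order, with black lines under each stretch and crosses for genes that were not tested. Values of Slc17a1, Slc17a4, Slco1a1, Slco1a4 and Slco4a1 are fitted folds of genes below the detection mark in 1 group. The Slc17a stretch and the Slc22a5 stretch point one way, and Slc22a8 and Slc22a6 point in opposite ways.

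Many members lie next to relatives, and the stretches differed in how alike their genes were. Family genes, by their names on the array, were taken as neighbours if no more than 500000 bases apart by mm9 probe coordinates. Several such stretches were found, counting the 3 genes left out. On chromosome 13, Slc17a2, Slc17a3, Slc17a1 and Slc17a4 were all called higher in adult hepatocytes. On chromosome 11, Slc22a5, Slc22a21 and Slc22a4 were called that way too, though the Slc22a21 call cannot be told apart from that of Slc22a5. On chromosome 6 the 4 tested genes of 6 were called higher in adult hepatocytes. The pair on chromosome 2, Slco4a1 and Slc17a9, which belong to different families, was called higher in E13 hepatoblasts. On chromosome 19 the pair Slc22a8 and Slc22a6 was split. Family genes under older array names, left out of these stretches, lie near that pair. Of them, Slc22a30 at chr19:8411250-8411309 is within 500000 bases of Slc22a8 and was called higher in adult hepatocytes. Counting such genes would place the pair in a longer stretch. The stretches with Slco4c1, Slco6b1 and Slco6c1 on chromosome 1 and with Slc22a13 and Slc22a14 on chromosome 9 held no tested gene. These stretches are described without a test.

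**Figure D4:**
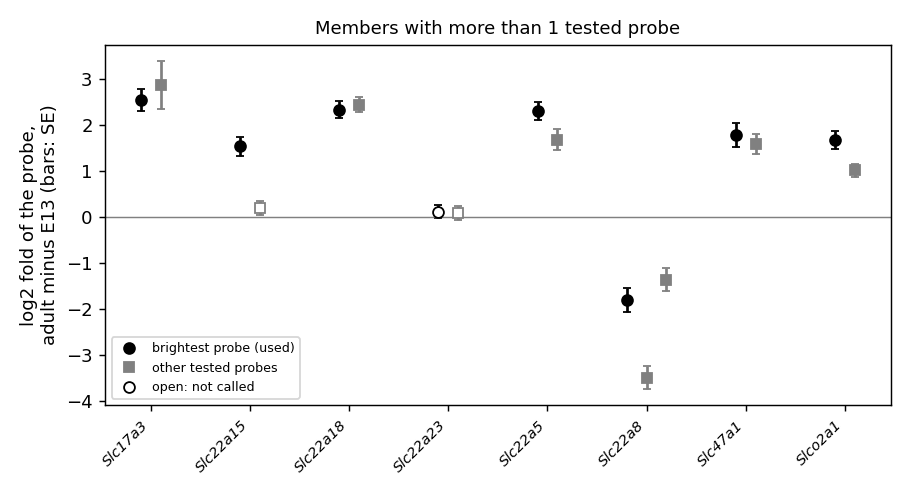
Log2 fold of each tested probe (vertical axis, with standard errors) for the 8 members with more than 1 tested probe. Black circles are the brightest probe, whose value stands for the gene, grey squares the others, and open symbols were not called; Slc22a15 is the member with 1 called and 1 uncalled probe. The grey Slc22a8 and Slc17a3 points are fitted folds of probes not well above background in 1 group.

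Probes of 1 member mostly told the same. Of 14 members with several probes, 8 had more than 1 tested, and in 8 of these 8 the probes had the same sign. In 6 every tested probe was called in 1 direction, none had probes called both ways, and the remaining pair were Slc22a15 and Slc22a23. Among probes well above background on all arrays, the size was less alike for Slco2a1, at log2 folds of 1.01 and 1.67, for Slc22a5, at 1.68 and 2.30, and for Slc22a15.

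Genes that work with these carriers, or are known to control them, were taken from lists of 41 genes, of which 40 were tested. Calls went to adult hepatocytes for 28 (32.1% of all genes tested), to E13 hepatoblasts for 4 (32.8%) and to neither for 8. The same shares stand beside the counts of each list. Among 10 ABC pumps that export anions, drugs or bile components, 7 were higher in adult hepatocytes and 3 in E13 hepatoblasts, with a median log2 fold of 1.40. Abcc3, which returns conjugates to the blood, was 139-fold and Abcb11, the bile salt pump, 27.4-fold higher in adult hepatocytes. Abcc5, an exporter of nucleotides and heme, was 42.3-fold higher in E13 hepatoblasts. With the mean of a gene's tested probes the log2 folds were 5.89 in place of 7.12 for Abcc3 and -4.44 in place of -5.40 for Abcc5, and with normexp correction 5.88 and -3.68. The scaffold proteins that hold carriers at the membrane gave no common direction: Pdzk1 (log2 fold 0.18 ± 0.16) and Slc9a3r1 (0.085 ± 0.19) were not called, Pdzk1ip1 was 1.68-fold higher in adult hepatocytes and Slc9a3r2 1.48-fold higher in E13 hepatoblasts. Spike-in scaling turned Pdzk1 to -1.15 and Pdzk1ip1 to -0.58, and Slc9a3r2 was not called without E13 replicate 1 (adjusted p = 0.0982 by limma), E13 replicate 2 (0.205) or adult replicate 2 (0.124), with 0.000737 to 0.205 over the alternatives, and Pdzk1ip1 was not called without E13 replicate 1 (0.0571) or E13 replicate 2 (0.0612).

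Of 15 transcription factors known to act on these genes, 10 were called towards adult hepatocytes (32.1% of all genes tested). Towards E13 hepatoblasts 0 were called (32.8%), and 5 in no direction. The nuclear receptors Nr0b2 (72.2-fold) and Nr1i3 (23.7-fold) and the oestrogen receptor Esr1 (at least 23.8-fold) were higher in adult hepatocytes. With normexp correction their log2 folds were 4.32 in place of 6.17 for Nr0b2, 3.70 in place of 4.56 for Nr1i3 and 3.03 for Esr1. Among those not called were Nr1i2 (log2 fold 0.55 ± 0.38), Stat5b (0.21 ± 0.16) and Nfe2l2 (0.17 ± 0.21). Of 7 genes of carnitine and urate metabolism, 6 were called higher in adult hepatocytes and Crat was not (log2 fold -0.12 ± 0.31). Xdh, which makes urate, was at least 278-fold higher, and Uox, which breaks it down, 178-fold higher, beside the urate carriers Slc17a1 and Slc17a3. Cpt1a, the entry step of carnitine-dependent fatty acid oxidation, was 13.2-fold higher, beside the carnitine carrier Slc22a5. The Uox log2 fold of 7.48 became 8.15 without E13 replicate 1 and 6.80 without E13 replicate 2, and that of Xdh was 6.24 with normexp correction.

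**Figure D5:**
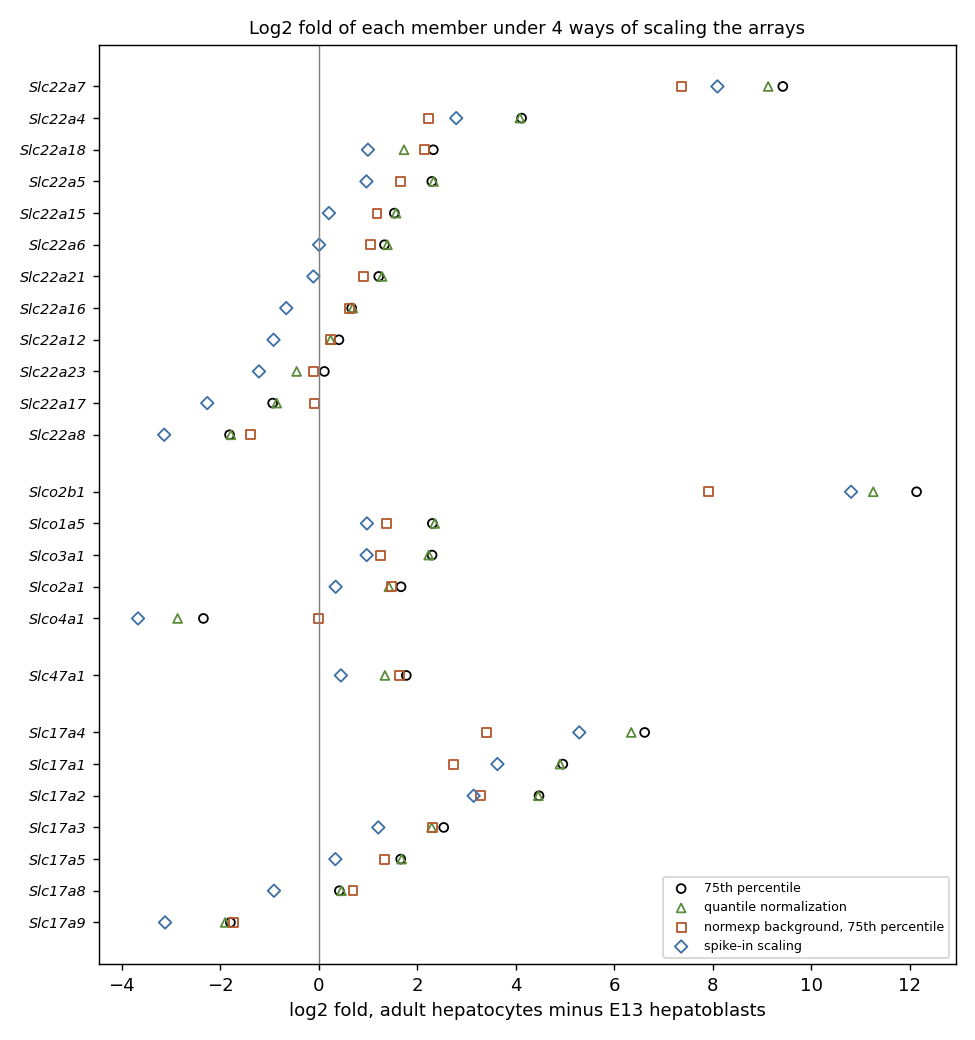
Log2 fold of adult hepatocytes minus E13 hepatoblasts (horizontal axis) of 25 transporters tested under 4 ways of scaling the arrays. The blue diamonds of spike-in scaling lie 1.33 to the left of the black circles for every gene. The red squares of normexp correction lie closer to 0 for most genes near background, for example 7.91 in place of 12.14 for Slco2b1. For Slc17a8 the square lies further from 0.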

How the data were processed

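The deposited intensity values were made by Agilent Feature Extraction 10.7.3.1, per the file headers, with background subtraction and detrending within each array and no scaling between arrays. The authors' deposited log2 values equalled the log2 processed signal minus the array's 75th percentile to within a median of 0.0024 (Pearson r = 1 on each array); the steps are not given in the sources used here. Replicate spots were averaged on the log2 scale without flagged spots, which left out 18 of 41174 probes, the 75th percentile was subtracted, and the brightest tested probe stood for its gene. limma 3.58.1 (R 4.3.3, lmFit and eBayes) compared the groups over 16422 genes, with Benjamini-Hochberg adjusted p under 0.05 as a call.

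Where neither array of 1 group was well above background, the fold is a bound: the higher group's mean minus the mean, per array of the other, of the larger of its value and the lowest signal well above background, which was -4.78 and -4.44 on the E13 arrays and -3.50 and -3.41 on the adult arrays. Sequences of probes come from the array files. Marker sums add the linear values of each marker's brightest probe. The members and lists were chosen with earlier results of these data known. Every tested member is named, with values per array, except 1 that is counted but not reported here, and each related list is named by its 3 widest folds, plus genes chosen after their values were seen (Slco1a4, Slc9a3r1, Crat, Nr1i2, Stat5b and Nfe2l2). 39 of 40 members matched a RefSeq accession, none with another current symbol. Alternatives were other background corrections, scalings, filters, probe rules, thresholds, the deposited values, leaving out each array and the replicate number as a block. All arrays shared 1 slide and 1 scan time, so neither could be a block. The planned protein identity between neighbours was not run.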

Additional observations from a re-analysis of the deposited data

How the results depend on the processing

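Spike-in scaling left 11 members called towards adult hepatocytes and 8 towards E13 hepatoblasts (1910 and 11617 of all genes, 14.1% of calls towards adult hepatocytes against 49.5%; related genes higher in E13 hepatoblasts, 12). It turned the log2 folds of Slc17a8 (-0.91), Slc22a12 (-0.92), Slc22a16 (-0.66), Slc22a21 (-0.11), Slc22a23 (-1.21), Pdzk1 (-1.15) and Pdzk1ip1 (-0.58), all but Slc22a21 called towards E13 hepatoblasts there. With it 8 members lost their call towards adult hepatocytes, Slc17a5, Slc22a15, Slc22a6, Slc22a21, Slc47a1, Slco2a1, Slco3a1 and Slc22a16, the last now called towards E13 hepatoblasts (limma adjusted p = 0.0239). The median of all genes was -1.34 there, 0.21 with normexp correction and -0.12 with quantile normalization. Normexp correction called 2 members and 4541 of all genes higher in E13 hepatoblasts and turned Slc22a23 to -0.11. Quantile normalization turned Slc22a23 to -0.45, called towards E13 hepatoblasts, and Pdzk1 to -0.26, not called. Without a filter on dim probes 30 members and 14614 genes were called higher in adult hepatocytes. The 11 members this added lay between 0.87 and 1.19, around the offset of 1.14 that probes below background show between the arrays. Only probes detected on all 4 arrays left 16 members, 11 called higher in adult hepatocytes and 2 related genes higher in E13 hepatoblasts, because fewer genes were tested. Related genes higher in E13 hepatoblasts also numbered 2 at an adjusted p under 0.01 and at 2-fold, and 2 to 4 when 1 array was left out. Without any 1 array, where the lone array of a group is assumed to vary like the other group, 18 of the 19 members kept their call towards adult hepatocytes, and 3 to 4 members were called towards E13 hepatoblasts.

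The replicate numbers do not pair the samples by their labels, and same-numbered arrays deviated with a correlation of -0.156. With the replicate number as a block, 18 members were called higher and 4 lower in adult hepatocytes, the lost one being Slc22a16, and Slc9a3r2 lost its call too (limma adjusted p = 0.0983). With the crossed pairing, added after the data were examined, 19 and 4 were called. Slc22a7, Slco2b1, Slc17a1 to Slc17a4, Slc17a9, Slc22a4, Slc22a5, Slc22a8, Slc22a18 and Slco1a5 kept their calls under every alternative in which they were tested. With 2 arrays per group, members near background such as Slco4a1, Slc17a8 and Slco3a1 are the least certain.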

Other observations

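Further genes of these families stand on the array under older names. By RefSeq accession, 5 genes named otherwise are now called Slc22a22, Slc22a26, Slc22a28, Slc22a29 and Slc22a30, all but Slc22a22 on chromosome 19. Slc22a28 (Gm5631 on the array) was -6.29 and -6.23 in E13 hepatoblasts, neither well above background, and 4.18 and 3.73 in adult hepatocytes, at least 378-fold higher (limma adjusted p = 4.08e-05). Slc22a30 (C730048C13Rik) was -4.94 and -4.86, also not well above background, against 4.61 and 4.29, at least 534-fold higher (limma adjusted p = 3.76e-05). Slc22a29 (D630002G06Rik) differed between the adult arrays, at -5.47 and -3.12, with only the second well above background. The matched probe of Slc22a26 (BC014805) and that of Slc22a22 (BC026439) were not well above background on any array. Another probe with the array name BC014805, not the one matched to Slc22a26, was called higher in adult hepatocytes. Its fitted log2 fold was 2.55 ± 0.18 (SE, limma adjusted p = 0.000487), and no bound was computed for it. These genes were not among the 40 members and were not counted in the stretches of neighbours.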
